A study of Mus musculus with 20 samples.

Results

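The mitochondrial protein import machinery was followed at the transcript level in mouse embryonic fibroblasts exposed to actinonin. Its members were defined by gene symbol: every gene on the array whose symbol starts with Timm or Tomm and a digit, plus Samm50, Mtx1, Mtx2, Mtx3, Pam16, Dnajc15, Dnajc19, Romo1, Pmpca, Pmpcb, Pitrm1, Mipep, Immp1l and Immp2l. The list was drawn up with earlier results of these data known. It held 39 of the 20145 genes named on the array. Of these, 37 were tested, and all 37 were well above background in all 20 samples. Tomm20l, a relative of the receptor Tomm20, was above background in 0 samples, and Timm8a2, a relative of Timm8a1, was above background in 1, so neither has a level here. In all, 24250 genes and transcripts were tested.

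The fibroblasts came from mice of a Balb/c background, and every culture, the controls included, grew in medium with uridine. Treated cells received 150 µM actinonin for 6, 24, 48 or 72 h. Actinonin, an antibiotic of the hydroxamate kind, blocks peptide deformylase, an enzyme that acts on newly made proteins in bacteria and in mitochondria. Control cells received ethanol, the carrier, at 3 µl/ml, and are labelled 0 h, so that exposure to actinonin and time in culture cannot be told apart. Each of the 5 groups held 4 samples, 2 in each dye, and each sample was the pooled RNA of 4 plates. The labels do not say whether the cultures of a group were set up separately, so p-values here reflect only sample-to-sample spread, which may be technical.

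Almost all mitochondrial proteins are encoded in the nucleus, made in the cytosol and imported. Precursors enter through the outer membrane translocase (TOM), after which beta-barrel proteins go to a sorting and assembly complex, carriers pass by way of small intermembrane space chaperones to the TIM22 translocase, and proteins with a cleavable presequence cross the inner membrane through the TIM23 translocase, pulled in by a motor built around the chaperone Hspa9. Peptidases then remove the presequences, and import depends on the membrane potential that the respiratory chain maintains.

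Samples were hybridised in pairs, 1 in each dye, on 10 Agilent arrays of 62976 spots. Slide 1 carried 2 controls and 2 samples of 6 h, and slide 2 carried all others. The fitted slide term was past an adjusted p of 0.05 (limma) for 18 of the 37 import genes and the dye term for 11. Over all 24250 tested these counts were 10645 and 6397. Levels are therefore given with both terms removed. The array of control 2_Cy3 and 48 h sample 2_Cy5 stood apart, with 66.4% and 70.5% of its spots well above background against 50.8% to 58.7% on the other 9 arrays. Of 11 fibroblast markers, all were tested and 10 were above background in every sample. Their mean level on the log2 scale was 14.39 to 14.45 in the controls, 14.16 to 14.31 at 6 h, 13.88 to 14.05 at 24 h, 13.51 to 13.77 at 48 h and 13.96 to 14.23 at 72 h, with 2, 9, 10 and 8 markers called lower, where 11.1%, 19.1%, 20.3% and 22.6% of all genes were, and 1 marker, Fn1, called higher at 72 h. No epithelial (0 of 4) or adipocyte (0 of 2) marker was above background in enough samples to be tested, and neither was the leukocyte gene Ptprc. The leukocyte gene Cd68 had no named probe, so it was not measured. Of the endothelial, muscle and neural markers, 2 of 4, 1 of 3 and 3 of 3 were tested, while the mean of the 4 tested macrophage markers was 10.35 to 10.42 in the controls and 9.92 to 10.01 at 72 h. Among these macrophage markers Cd14 changed by -1.35 at 72 h and Itgam by -0.25, both called lower. Csf1r changed by -0.16 and Adgre1 by 0.10, neither called. Above background in every sample were 3 macrophage, 2 endothelial and 1 neural marker. The part of these marker shifts in the results below was not tested, and in bulk RNA fewer cells of a type and less RNA per cell cannot be told apart.

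Import genes changed in both directions at each time, and the balance moved from higher to lower over the course. At 6 h, 10 of 37 passed the test (limma, adjusted p under 0.05 over all 24250 tested), 9 higher and 1 lower, against 24.8% of all genes tested (13.7% higher, 11.1% lower). At 24 h, 17 passed, 12 higher and 5 lower, against 40.3% (21.2% and 19.1%), and at 48 h 18 passed, 12 higher and 6 lower, against 41.8% (21.5% and 20.3%). At 72 h, 22 passed, 10 higher and 12 lower, against 47.7% (25.2% and 22.6%). Whether the members' share differs from that of all genes was not tested, and its order against theirs turned at the later times when arrays were not scaled to each other. The median log2 change of the 37 members was 0.054, 0.082, 0.040 and -0.035 at 6, 24, 48 and 72 h, beside medians of 0.00043, 0.0075, -0.00038 and -0.00089 over all genes tested. The changes were mostly small. The median absolute log2 change was 0.12, 0.15, 0.14 and 0.18 for the members and 0.094, 0.16, 0.14 and 0.19 for all genes. In the same order, 2, 2, 3 and 2 of 37 members reached 1.5-fold, beside 406, 1591, 1625 and 2609 of all 24250. When arrays were normalized by loess but not scaled to each other, 11 higher and 0 lower were called at 6 h, 6 higher and 0 lower at 24 h, 11 and 4 at 48 h, and 6 and 4 at 72 h, beside 5154, 6116, 10011 and 8231 of all 24250. Calls lost there were Romo1 at 6 h, all 5 lower calls and Mtx2, Pam16, Pmpcb, Timm44, Tomm20 and Tomm70a at 24 h, and Pam16, Timm13 and Timm29 at 48 h. At 72 h they were Romo1, Samm50, Timm10b, Timm17b, Timm50, Tomm22, Tomm5 and Tomm6 among the lower genes and Mtx2, Pam16, Pmpcb and Timm10 among the higher. Without the slide term, Timm22 was lost at 24, 48 and 72 h, Timm13 at 48 and 72 h, Timm50 at 24 and 72 h, Timm17a and Tomm20 at 24 h and Timm10 at 72 h. Both quantile normalization and the authors' values lost Timm17a at 24 h, Romo1 and Timm13 at 48 h and Mtx2 and Tomm5 at 72 h, and the authors' values also lost Timm29 at 48 h. The 6 h count was 18 without control 1_Cy5.

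**Figure D1:**
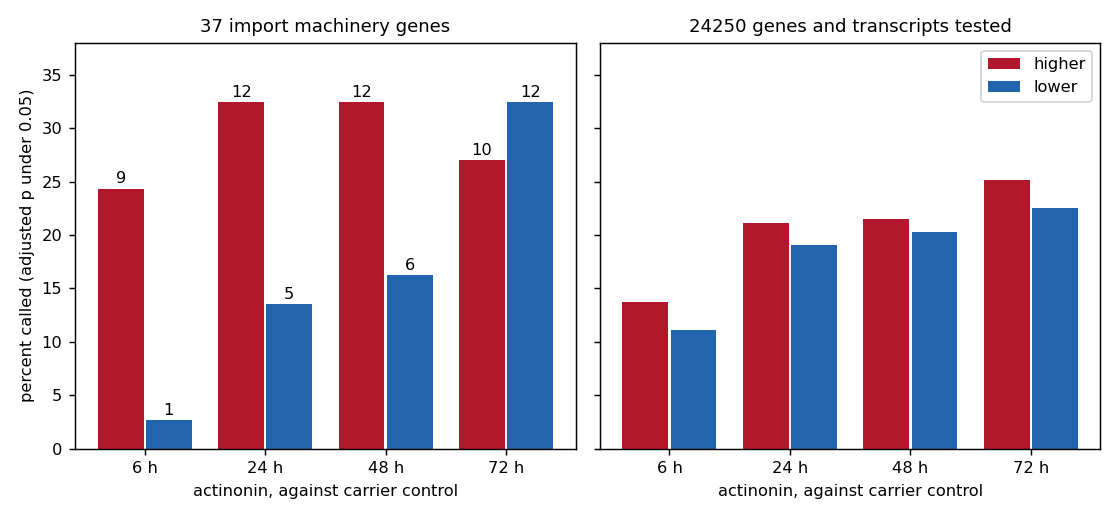
Percent of genes called higher (red) or lower (blue) than the carrier control at each time, for the 37 import genes (left, with counts over the bars) and for all 24250 genes and transcripts tested (right). Among the import genes the higher calls went from 9 to 10 between 6 h and 72 h, with 12 at the times between, and the lower calls from 1 to 12.

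By gene, 16 members were higher at some time, 13 were lower at some time and 0 were called in both directions. Mtx2, Mtx3, Pam16, Timm10, Timm44 and Timm8a1 were higher at all 4 times, though with the mean of its probes Timm8a1 at 72 h was at 0.15 (adjusted p 0.116), and no member was lower at all 4. On only the samples of the 2 groups compared, the 6 h call was lost for Mtx2, Mtx3, Pam16 and Timm44. The later calls of Pam16 and the 72 h calls of Mtx2 and Timm10 were lost there too. Without the dye term Mtx2 was lost at 6 and 72 h, Timm44 at 6, 24 and 48 h, Pam16 at 48 h and Timm10 at 72 h. The largest change of a called member came at 72 h for 13 genes, at 24 h for 7, at 6 h for 6 and at 48 h for 3. Immp1l, Mtx1, Pitrm1, Pmpca, Timm21, Timm8b, Tomm40 and Tomm7 passed the test at no time. These counts by gene were not taken over all genes, of which 24.8%, 40.3%, 41.8% and 47.7% were called at the 4 times. Whether they are particular to the import genes was thus not tested. Treated and control values did not overlap for 12 members at 6 h (9 above, 3 below), beside 22.9% of all genes, and for 20, 20 and 21 members at 24, 48 and 72 h, beside 44.1%, 37.8% and 49.8%.

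**Figure D2:**
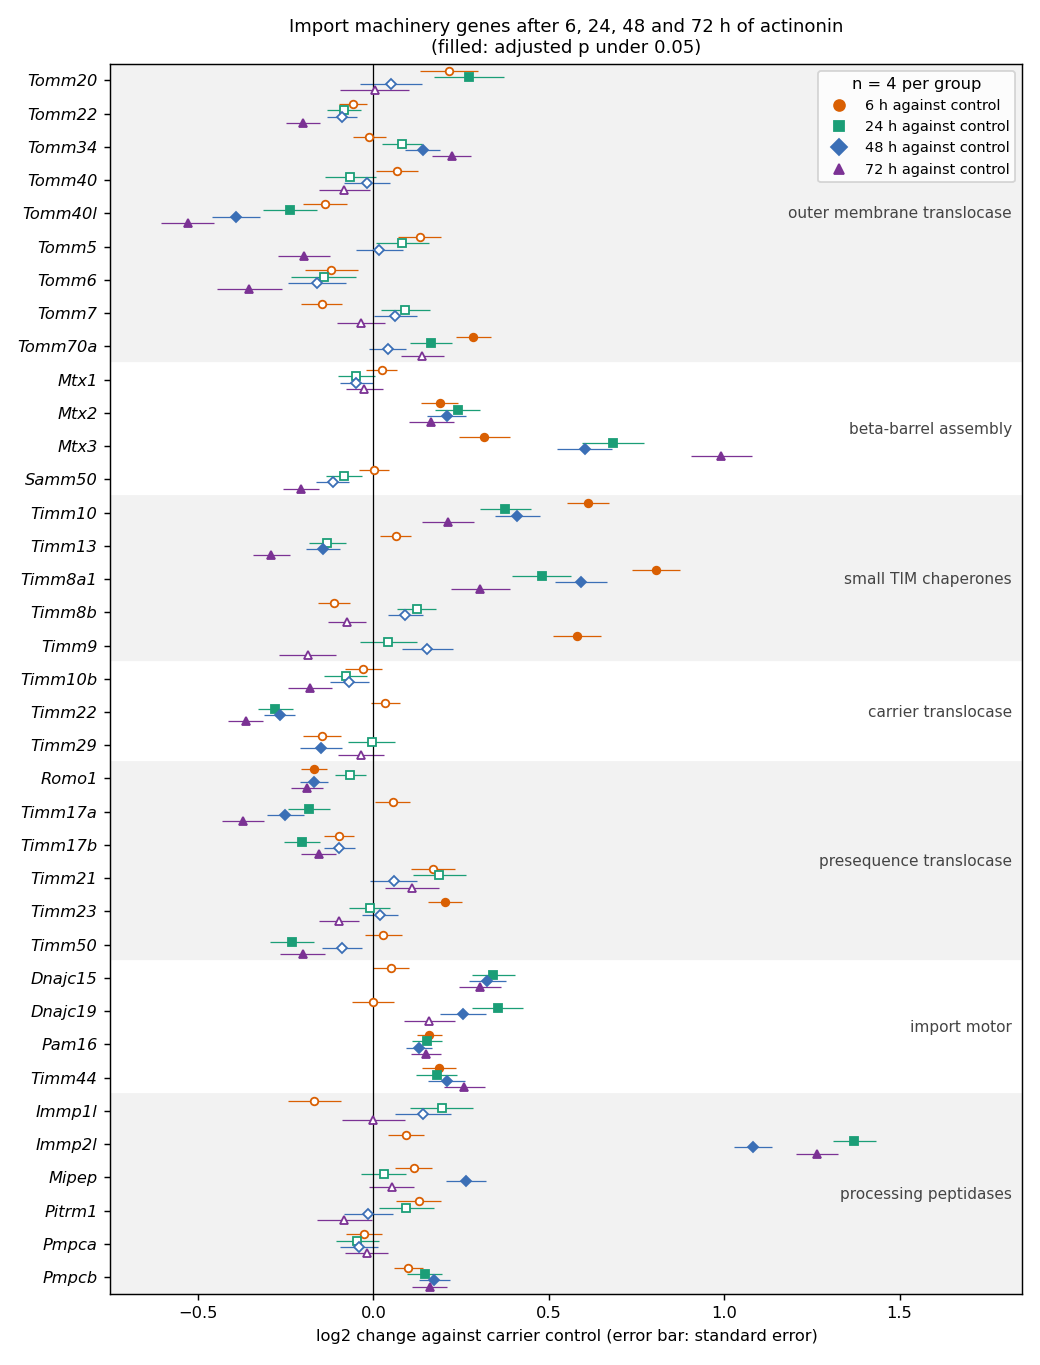
Log2 change against the carrier control, with its standard error, of each of the 37 tested import genes at 6 h (circles), 24 h (squares), 48 h (diamonds) and 72 h (triangles), by complex, with filled symbols for adjusted p under 0.05. Immp2l and Mtx3 lie farthest to the right at the later times and Timm8a1, Timm10 and Timm9 at 6 h, while Tomm40l, Timm17a and Timm22 lie farthest to the left at 72 h.

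The small TIM proteins, chaperones that carry hydrophobic precursors across the intermembrane space, gave the largest 6 h changes of the machinery: 3 of 5 rose at 6 h, where 13.7% of all genes did, and 2 rose at each later time, beside 21.2%, 21.5% and 25.2%. At 48 h and 72 h 1 of the 5 fell, beside 20.3% and 22.6%. Timm9 and Timm10 form the main hexamer of this group, and Timm8a1 pairs with Timm13 in a second one. RefSeq promoters (assembly GRCm38.p6) were given for 36 of the 39 members. The last 150 bases before the transcription start of the 3 genes that rose are shown because these genes moved together, in the direction of the gene, with capitals for an E-box (CACGTG) or an ETS-type motif (CCGGAAG, here on the other strand as CTTCCGG). They lie at chrX:134541671-134541820 (minus strand), chr12:71136676-71136825 (minus strand) and chr2:84826871-84827020 (plus strand).
Timm8a1: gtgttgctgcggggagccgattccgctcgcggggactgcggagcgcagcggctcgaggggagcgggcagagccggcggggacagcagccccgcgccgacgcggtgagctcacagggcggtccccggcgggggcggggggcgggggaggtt
Timm9: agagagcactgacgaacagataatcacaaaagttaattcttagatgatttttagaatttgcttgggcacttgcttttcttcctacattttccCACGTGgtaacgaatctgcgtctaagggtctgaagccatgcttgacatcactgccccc
Timm10: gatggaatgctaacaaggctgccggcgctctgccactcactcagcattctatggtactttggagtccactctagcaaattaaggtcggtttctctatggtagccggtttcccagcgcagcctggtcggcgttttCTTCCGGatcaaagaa
The Timm9 promoter holds an E-box at positions -58 to -53, counted from the start, and the Timm10 promoter an ETS-type motif at -16 to -10. Timm8a1 has an E-box at -236 to -231, outside the stretch shown. Over both strands of the 250 bases before the start, CACGTG stood in 6.05% of 27025 mouse promoters and in 5 of the 36 member promoters, and CCGGAAG in 7.05% and in 14 of 36. The 14 with CCGGAAG were Mtx2, Mtx3, Pmpcb, Timm10, Timm23, Tomm34 and Tomm70a, called higher at some time, and Romo1, Timm29 and Tomm22, called lower. The rest were Mtx1, Pmpca and Timm8b, called at no time, and Timm8a2, not tested. The 27025 promoters were not limited to genes tested here, and whether the shares differ was not tested. The NRF1-type motif, searched by its consensus on both strands, stood in 3.86% and in 3 of 36 (Pam16, Romo1 and Tomm20), and TGATGNAA, the composite site of the stress factor Atf4, in 3.53% and in 0 of 36. A match is a description of the letters, not of a bound site.

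Timm8a1 was the member with the largest change at 6 h. Its log2 level was 12.96, 13.05, 13.13 and 13.42 in the 4 controls and 13.83, 13.96, 13.97 and 14.04 at 6 h. It was 13.57, 13.59, 13.62 and 13.71 at 24 h, 13.65, 13.75, 13.76 and 13.77 at 48 h and 13.43, 13.43, 13.44 and 13.49 at 72 h. All 16 treated samples lay above all 4 controls, the 6 h samples highest and the 72 h samples lowest among them. The log2 change was 0.81 (SE 0.070, adjusted p 1.62e-07) at 6 h, a 1.75-fold rise, and 0.48, 0.59 and 0.31 at the later times. Within slide 1 the 6 h change was 0.71 and within slide 2 it was 0.93. A dimmer probe of the gene gave 0.44, 0.24, 0.38 and -0.012, so the probes differed at 72 h, and with the mean of the probes the 72 h call was lost, at 0.15 (adjusted p 0.116).

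Timm9 was raised at 6 h alone among the 4 times. Its level was 11.72, 11.89, 11.91 and 12.14 in the controls and 12.35, 12.43, 12.60 and 12.62 at 6 h, with no overlap. It was 11.91, 11.94, 11.97 and 12.02 at 24 h, 12.03, 12.04, 12.07 and 12.14 at 48 h and 11.63, 11.71, 11.75 and 11.83 at 72 h, all 3 groups overlapping the controls. The change was 0.58 (SE 0.068, adjusted p 5.49e-06) at 6 h, 0.56 within slide 1 and 0.60 within slide 2. At 24, 48 and 72 h it was 0.042, 0.15 and -0.19 (adjusted p 0.722, 0.103 and 0.0672). From 6 h to 24 h Timm9 fell by 0.54 (SE 0.081, adjusted p 5.71e-05), and from 48 h to 72 h by 0.34 (adjusted p 0.00277).

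Its partner Timm10 stayed higher. The controls were at 12.61, 12.76, 12.80 and 12.97, the 6 h samples at 13.30, 13.37, 13.43 and 13.48 and the 24 h samples at 13.06, 13.08, 13.20 and 13.29. The 48 h samples were at 13.17, 13.18, 13.20 and 13.22 and the 72 h samples at 12.95, 12.97, 12.98 and 13.08. Treated samples lay above all controls at 6, 24 and 48 h and overlapped with the highest control at 72 h. Timm10 rose by 0.61 at 6 h (SE 0.060, adjusted p 8.56e-07), with 0.60 within slide 1 and 0.62 within slide 2. The change was 0.38, 0.41 and 0.21 afterwards, and a second probe gave 0.62, 0.40, 0.39 and 0.29. The 72 h call was lost without 72 h sample 2_Cy5, control 2_Cy3 or control 2_Cy5 (log2 change 0.19 to 0.23, adjusted p 0.0515 to 0.0866).

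The other small TIM genes were not called higher than control at any time. Timm13, the partner of Timm8a1, changed by 0.063 at 6 h and -0.13 at 24 h (adjusted p 0.353 and 0.0602) and fell by 0.14 at 48 h and 0.29 at 72 h (adjusted p 0.0211 and 0.000193). Its 48 h call was lost without 48 h sample 1_Cy3, 48 h sample 2_Cy5 or control 2_Cy5 (log2 change -0.14 to -0.12, adjusted p 0.0682 to 0.0839). It was also lost with quantile normalization, at -0.071 (adjusted p 0.271), and in the authors' values, at -0.070 (adjusted p 0.28). The 48 h and 72 h values were -0.061 (adjusted p 0.623) and -0.11 (adjusted p 0.477) without the slide term, both calls lost. Timm8b, a paralog of Timm8a1, was at 13.58, 13.67, 13.74 and 13.75 in the controls, 13.52, 13.57, 13.58 and 13.59 at 6 h and 13.76, 13.78, 13.83 and 13.85 at 24 h. It was at 13.73, 13.76, 13.79 and 13.81 at 48 h and 13.56, 13.58, 13.58 and 13.70 at 72 h. All 4 samples of 24 h lay just above the controls and the other groups overlapped them. Its changes against control were -0.11, 0.12, 0.091 and -0.076, none past the threshold (adjusted p 0.0802, 0.0843, 0.15 and 0.275).

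**Figure D3:**
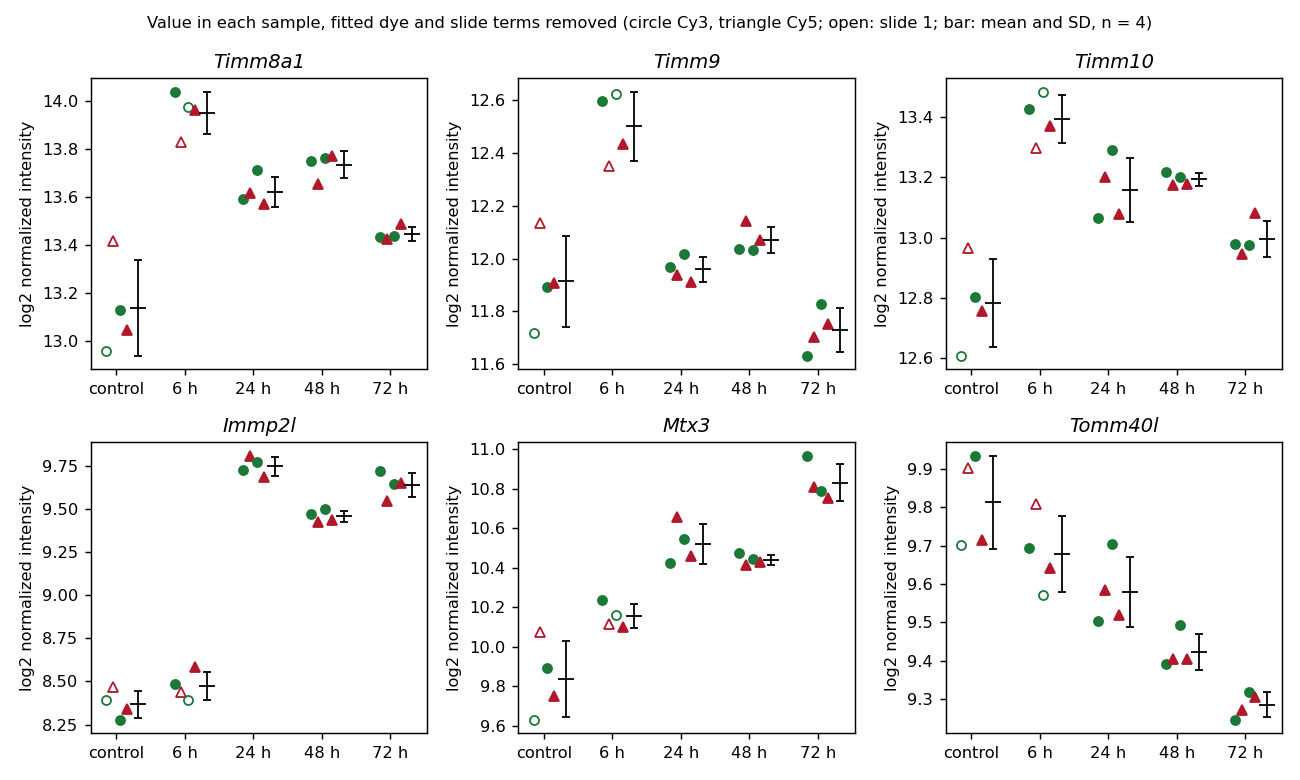
Log2 normalized intensity of Timm8a1, Timm9, Timm10, Immp2l, Mtx3 and Tomm40l in each of the 20 samples, with the fitted dye and slide terms removed, by group (circles Cy3, triangles Cy5, open symbols slide 1; bars give the mean and SD of 4 samples). The small TIM genes peak at 6 h, Immp2l separates from the controls from 24 h on, Mtx3 is highest and Tomm40l lowest at 72 h. For Timm8a1, Timm9, Timm10 and Mtx3 the highest and the lowest control are the pair on slide 1.

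The TIM22 translocase inserts carrier proteins into the inner membrane, and 0, 1, 2 and 2 of its 3 tested genes fell at 6, 24, 48 and 72 h, where 11.1%, 19.1%, 20.3% and 22.6% of all genes did, and 0 rose. Timm22, the channel, was at 12.21, 12.22, 12.23 and 12.28 in the controls and 12.21, 12.23, 12.28 and 12.35 at 6 h. It was at 11.89, 11.97, 11.97 and 11.98 at 24 h, 11.91, 11.94, 12.0001 and 12.02 at 48 h and 11.83, 11.86, 11.87 and 11.92 at 72 h. Controls and 6 h samples overlapped, and all 12 later samples lay below every control. Timm22 changed by 0.034 at 6 h (adjusted p 0.626) and fell by 0.28, 0.27 and 0.36 at the later times (SE 0.049 and adjusted p 7.77e-06 at 72 h). Without the slide term all 3 calls were lost, with changes of -0.11 (adjusted p 0.505), -0.18 (adjusted p 0.0759) and -0.19 (adjusted p 0.161).

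Timm10b, a small TIM protein held at TIM22, was at 12.82, 12.84, 12.95 and 13.01 in the controls, 12.86, 12.87, 12.87 and 12.89 at 6 h and 12.76, 12.82, 12.82 and 12.89 at 24 h. It was at 12.73, 12.78, 12.88 and 12.96 at 48 h and 12.63, 12.73, 12.76 and 12.77 at 72 h, where alone the groups did not overlap. Its changes were -0.028, -0.079, -0.069 and -0.18, the last past the threshold (adjusted p 0.0235) but lost without 72 h sample 2_Cy3 or control 2_Cy3 (log2 change -0.16 to -0.15, adjusted p 0.073 to 0.0926). Timm29, a subunit of TIM22 found in animals, was lower at 48 h, at -0.15 (adjusted p 0.0497), and at -0.15, -0.0050 and -0.035 at 6, 24 and 72 h. That call was lost without 48 h sample 2_Cy3, 48 h sample 2_Cy5, control 2_Cy3 or control 2_Cy5 (log2 change -0.18 to -0.094, adjusted p 0.069 to 0.335).

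Of 9 tested genes of the outer membrane group, 1, 2, 1 and 1 rose at 6, 24, 48 and 72 h, where 13.7%, 21.2%, 21.5% and 25.2% of all genes did. In the same order 0, 1, 1 and 4 fell, beside 11.1%, 19.1%, 20.3% and 22.6%. Tomm40l, a paralog of the import pore Tomm40, showed the largest fall of any import gene against control. It was at 9.70, 9.72, 9.90 and 9.93 in the controls, 9.57, 9.64, 9.69 and 9.81 at 6 h and 9.50, 9.52, 9.59 and 9.70 at 24 h. It was at 9.39, 9.40, 9.40 and 9.49 at 48 h and 9.25, 9.27, 9.31 and 9.32 at 72 h. The 6 h and 24 h samples overlapped the controls, and the 48 h and 72 h samples lay below all of them. The log2 change was -0.14 (adjusted p 0.132) at 6 h, then -0.24, -0.39 and -0.53 (SE 0.077, adjusted p 1.57e-05 at 72 h, 1.44-fold lower). The 24 h call was lost without 24 h sample 1_Cy3, 24 h sample 2_Cy5 or control 2_Cy3 (log2 change -0.21 to -0.16, adjusted p 0.0543 to 0.149).

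Tomm40 itself passed at no time. Its level was 13.14, 13.24, 13.24 and 13.28 in the controls, 13.08, 13.27, 13.39 and 13.45 at 6 h and 13.09, 13.15, 13.18 and 13.23 at 24 h. It was 13.20, 13.20, 13.20 and 13.24 at 48 h and 13.09, 13.11, 13.17 and 13.21 at 72 h, every group overlapping the controls. The changes were 0.066, -0.066, -0.018 and -0.083 (adjusted p 0.494, 0.507, 0.86 and 0.374). A dimmer Tomm40 probe gave 0.023, -0.16, -0.043 and -0.20 and was not tested by itself.

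Tomm6, a small subunit that stabilises the pore complex, was at 14.36, 14.51, 14.61 and 14.75 in the controls, 14.33, 14.38, 14.49 and 14.56 at 6 h and 14.36, 14.36, 14.48 and 14.48 at 24 h. It was at 14.27, 14.40, 14.43 and 14.49 at 48 h and 14.10, 14.20, 14.23 and 14.28 at 72 h, where alone all treated samples lay below the controls. Tomm6 changed by -0.12, -0.14 and -0.16 without passing and fell by 0.35 at 72 h (SE 0.093, adjusted p 0.00405). Tomm22, the central receptor, and Tomm5, another small subunit, also fell at 72 h, by 0.20 and 0.20 (adjusted p 0.00231 and 0.035). At 6, 24 and 48 h Tomm22 was at -0.059, -0.085 and -0.090, with every treated sample below every control, and Tomm5 at 0.13, 0.083 and 0.017, overlapping them. The Tomm5 call was lost without 72 h sample 1_Cy3, 72 h sample 2_Cy3, control 1_Cy5 or control 2_Cy3 (log2 change -0.19 to -0.12, adjusted p 0.0604 to 0.248). The small subunit Tomm7 passed at no time, with changes of -0.15, 0.091, 0.062 and -0.036.

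Tomm70a and Tomm20 were called higher early. Tomm70a, the receptor for carrier precursors, rose by 0.28 at 6 h (SE 0.050, adjusted p 0.000342) and 0.17 at 24 h (adjusted p 0.0358), and was at 0.040 and 0.14 at 48 and 72 h. The 24 h call was lost without 24 h sample 1_Cy5, 24 h sample 2_Cy3, control 1_Cy3 or control 2_Cy3 (log2 change 0.14 to 0.17, adjusted p 0.0549 to 0.0898). Tomm20, the presequence receptor, was 0.22 higher at 6 h (adjusted p 0.0676) and rose by 0.27 at 24 h (adjusted p 0.0373), a call lost without 24 h sample 1_Cy5, 24 h sample 2_Cy3, 24 h sample 2_Cy5, control 1_Cy3 or control 2_Cy5 (log2 change 0.21 to 0.29, adjusted p 0.0506 to 0.175). On a second Tomm20 probe the changes were 0.16, 0.41, 0.38 and 0.25, larger at 48 and 72 h than the 0.051 and 0.0031 of the brighter probe. Tomm34, a cytosolic cochaperone of precursors, was at -0.012 and 0.082 at 6 and 24 h and rose by 0.14 at 48 h and 0.22 at 72 h (adjusted p 0.0329 and 0.00337), and its 48 h call was lost without 48 h sample 1_Cy3, 48 h sample 1_Cy5, 48 h sample 2_Cy5, control 1_Cy5 or control 2_Cy3 (log2 change 0.10 to 0.15, adjusted p 0.0532 to 0.154).

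In the sorting and assembly group, 2 of 4 genes rose at each time, beside 13.7%, 21.2%, 21.5% and 25.2% of all genes, and 1, the core subunit, fell at 72 h, beside 22.6%. Mtx3, a metaxin, one of the outer membrane proteins that sit at the assembly complex, rose by more at 72 h than at any time before. Its promoter is shown with that of Immp2l, since these were the members with the largest changes at the later times, again as the last 150 bases before the start with E-box and ETS-type letters in capitals. Mtx3 lies at chr13:92844618-92844767 and Immp2l at chr12:41023940-41024089, both on the plus strand.
Mtx3: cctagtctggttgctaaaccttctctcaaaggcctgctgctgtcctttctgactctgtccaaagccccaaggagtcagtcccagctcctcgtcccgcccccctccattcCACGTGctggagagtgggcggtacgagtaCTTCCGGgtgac
Immp2l: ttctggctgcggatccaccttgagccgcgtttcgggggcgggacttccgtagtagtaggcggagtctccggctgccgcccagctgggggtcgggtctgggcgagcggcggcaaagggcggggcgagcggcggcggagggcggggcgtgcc
The Mtx3 stretch holds an E-box at -41 to -36 and an ETS-type motif at -12 to -6, and a further ETS-type motif lies at -164 to -158. None of the 4 motifs searched stood in the 250 bases before the Immp2l start.

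Mtx3 was at 9.63, 9.75, 9.89 and 10.07 in the controls, 10.10, 10.12, 10.16 and 10.24 at 6 h and 10.42, 10.46, 10.54 and 10.65 at 24 h. It was at 10.41, 10.43, 10.44 and 10.47 at 48 h and 10.75, 10.79, 10.81 and 10.97 at 72 h. All treated samples lay above all controls, and all 72 h samples above all 24 h and 48 h samples. The log2 change was 0.32 at 6 h (adjusted p 0.00326, with 0.29 within slide 1 and 0.36 within slide 2), 0.68 at 24 h, 0.60 at 48 h and 0.99 at 72 h (SE 0.087, adjusted p 4.09e-08, 1.99-fold).

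Mtx2, another metaxin, was at 12.36, 12.40, 12.43 and 12.49 in the controls, 12.52, 12.64, 12.67 and 12.67 at 6 h and 12.57, 12.65, 12.65 and 12.80 at 24 h. It was at 12.57, 12.64, 12.65 and 12.68 at 48 h and 12.51, 12.57, 12.61 and 12.68 at 72 h, all above the controls. It rose by 0.19, 0.24, 0.21 and 0.17 (adjusted p 0.0122, 0.00522, 0.00548 and 0.0381). The 6 h call was lost without 6 h sample 1_Cy5, control 1_Cy3 or control 2_Cy5 (log2 change 0.16 to 0.17, adjusted p 0.0544 to 0.0612). The 48 h call was lost without control 2_Cy5 (log2 change 0.16, adjusted p 0.0698), and the 72 h call without 72 h sample 1_Cy5, 72 h sample 2_Cy3, 72 h sample 2_Cy5, control 1_Cy3, control 2_Cy3 or control 2_Cy5 (log2 change 0.12 to 0.18, adjusted p 0.0572 to 0.2).

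Mtx1, the third metaxin, was at 13.14, 13.18, 13.22 and 13.28 in the controls, 13.18, 13.20, 13.24 and 13.32 at 6 h and 13.12, 13.13, 13.17 and 13.22 at 24 h. It was at 13.09, 13.17, 13.18 and 13.20 at 48 h and 13.16, 13.18, 13.19 and 13.20 at 72 h. All groups overlapped, and the changes of 0.024, -0.049, -0.049 and -0.027 (SE 0.044 to 0.053) did not pass. Samm50, the core subunit that inserts beta-barrels, changed by 0.0026, -0.084 and -0.12 (adjusted p 0.98, 0.214 and 0.0518) and fell by 0.21 at 72 h (adjusted p 0.00303).

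Of 6 genes of the TIM23 presequence translocase, 1 rose and 1 fell at 6 h, where 13.7% and 11.1% of all genes did. At 24, 48 and 72 h 3, 2 and 4 fell, beside 19.1%, 20.3% and 22.6%, and 0 rose. Timm17a, a channel subunit, was at 14.84, 14.99, 15.00 and 15.12 in the controls, 14.97, 15.02, 15.05 and 15.13 at 6 h and 14.71, 14.80, 14.85 and 14.85 at 24 h. It was at 14.70, 14.73, 14.75 and 14.76 at 48 h and 14.58, 14.61, 14.62 and 14.65 at 72 h. The 6 h and 24 h samples overlapped the controls and the 48 h and 72 h samples lay below them. The change was 0.054 (adjusted p 0.497) at 6 h, -0.18 at 24 h, -0.25 at 48 h and -0.37 at 72 h (SE 0.060, adjusted p 4.95e-05). The 24 h call was lost without 24 h sample 2_Cy5, control 2_Cy3 or control 2_Cy5 (log2 change -0.18 to -0.15, adjusted p 0.0573 to 0.0753). A second probe gave -0.026, -0.12, -0.13 and -0.26.

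Timm17b, the paralog that takes the same place in the channel, was at 13.41, 13.41, 13.41 and 13.44 in the controls, 13.31, 13.31, 13.32 and 13.35 at 6 h and 13.20, 13.21, 13.22 and 13.24 at 24 h. It was at 13.25, 13.31, 13.37 and 13.37 at 48 h and 13.19, 13.20, 13.32 and 13.34 at 72 h. Every treated sample lay below every control, though the test passed at 24 h and 72 h alone, with falls of 0.20 and 0.16 (adjusted p 0.00363 and 0.0163). At 6 h and 48 h the changes were -0.099 and -0.097 (adjusted p 0.102 and 0.097). The 72 h call was lost without 72 h sample 1_Cy5, 72 h sample 2_Cy3 or control 2_Cy5 (log2 change -0.13, adjusted p 0.056 to 0.0821).

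Timm23, the channel itself, rose by 0.20 at 6 h (SE 0.048, adjusted p 0.00367, with 0.18 within slide 1 and 0.24 within slide 2) and changed by -0.011, 0.019 and -0.098 later. From 6 h to 24 h it fell by 0.22 (adjusted p 0.00714), a call lost without the slide term, at -0.12 (adjusted p 0.297). Timm50, the receptor of the complex, changed by 0.028 at 6 h, fell by 0.23 at 24 h and 0.20 at 72 h (adjusted p 0.00683 and 0.0134) and was at -0.090 at 48 h. Its 72 h call was lost without control 2_Cy5 (log2 change -0.17, adjusted p 0.0718). Romo1, a small regulator of the translocase, was the member that fell at 6 h, by 0.17 (SE 0.037, adjusted p 0.00219). It was at -0.066 at 24 h and fell by 0.17 and 0.19 at 48 and 72 h, and its 3 probes were negative at all 4 times. The 48 h call was lost with quantile normalization, at -0.095 (adjusted p 0.0815), and in the authors' values, at -0.092 (adjusted p 0.0916). Timm21, which links the translocase to the outer membrane and the respiratory chain, passed at no time (0.17, 0.19, 0.057 and 0.11).

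The import motor stood higher: of 4 genes, 2, 4, 4 and 3 rose at 6, 24, 48 and 72 h and 0 fell, beside 13.7%, 21.2%, 21.5% and 25.2% of all genes called higher. The median log2 change of the 4 genes was 0.10, 0.26, 0.23 and 0.21. Timm44, which tethers the motor to the channel, rose by 0.19, 0.18, 0.21 and 0.26 (adjusted p 0.00726, 0.0185, 0.00295 and 0.00117). Pam16, a J-like subunit that restrains the motor, rose by 0.16, 0.15, 0.13 and 0.15 (adjusted p 0.00252, 0.00793, 0.00989 and 0.00734), and its second probe gave 0.15, 0.15, 0.14 and 0.19. The Timm44 call at 24 h was lost without control 2_Cy5 (log2 change 0.13, adjusted p 0.131). The Pam16 calls were lost at 24 h without control 2_Cy5 (log2 change 0.12, adjusted p 0.0601), at 48 h without control 2_Cy5 (log2 change 0.10, adjusted p 0.0976) and at 72 h without control 2_Cy5 (log2 change 0.12, adjusted p 0.056).

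Dnajc19 and Dnajc15, J proteins that stimulate the motor chaperone, rose from 24 h. Dnajc19 was at 12.05, 12.09, 12.13 and 12.22 in the controls, 12.01, 12.07, 12.14 and 12.24 at 6 h and 12.44, 12.46, 12.50 and 12.51 at 24 h. It was at 12.24, 12.27, 12.49 and 12.50 at 48 h and 12.24, 12.26, 12.30 and 12.32 at 72 h. The 6 h samples overlapped the controls and all later samples lay above them. The change was -0.0021 at 6 h, 0.35 at 24 h (SE 0.073, adjusted p 0.000729), 0.26 at 48 h (adjusted p 0.0035) and 0.16 at 72 h (adjusted p 0.08). A dimmer Dnajc19 probe gave -0.0075, 0.057, 0.090 and 0.23. Dnajc15 changed by 0.050 at 6 h (adjusted p 0.542) and rose by 0.34, 0.32 and 0.30 (adjusted p 0.000184, 7.45e-05 and 0.000415).

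Of the 6 peptidases, 0, 2, 3 and 2 rose at 6, 24, 48 and 72 h, beside 13.7%, 21.2%, 21.5% and 25.2% of all genes, and 0 fell. Immp2l, a catalytic subunit of the inner membrane peptidase that removes sorting signals, had the largest change of all 37 import genes. It was at 8.28, 8.34, 8.39 and 8.46 in the controls and 8.39, 8.44, 8.49 and 8.58 at 6 h. It was at 9.68, 9.72, 9.77 and 9.81 at 24 h, 9.42, 9.43, 9.47 and 9.50 at 48 h and 9.55, 9.64, 9.65 and 9.72 at 72 h. Controls and 6 h samples overlapped and all 12 later samples lay above all of them. The change was 0.092 at 6 h (adjusted p 0.218), 1.37 at 24 h (SE 0.061, adjusted p 1.62e-11, 2.59-fold), 1.08 at 48 h and 1.26 at 72 h. It fell by 0.29 from 24 h to 48 h (adjusted p 0.00289) and rose by 0.18 from 48 h to 72 h (adjusted p 0.0235). The last step was lost without 48 h sample 1_Cy5, 72 h sample 1_Cy3 or 72 h sample 2_Cy3 (log2 change 0.16 to 0.18, adjusted p 0.059 to 0.0828). The gene had 1 probe, and within slide 2 its 6 h change was 0.22 against -0.013 within slide 1.

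Immp1l, the other catalytic subunit of that peptidase, was at 12.04, 12.05, 12.12 and 12.27 in the controls, 11.81, 11.86, 11.90 and 12.15 at 6 h and 12.23, 12.25, 12.35 and 12.39 at 24 h. It was at 12.09, 12.18, 12.35 and 12.38 at 48 h and 12.03, 12.09, 12.15 and 12.16 at 72 h. All groups overlapped the controls, and the changes of -0.17, 0.20, 0.14 and 0.00015 did not pass (adjusted p 0.117, 0.0953, 0.18 and 0.999). From 6 h to 24 h it rose by 0.36 (adjusted p 0.0043), a step lost without 6 h sample 2_Cy5 (log2 change 0.26, adjusted p 0.052) and, without the slide term, at 0.18 (adjusted p 0.378).

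Pmpcb, the catalytic subunit of the matrix processing peptidase, was at 12.97, 12.99, 13.07 and 13.13 in the controls, 13.11, 13.15, 13.16 and 13.16 at 6 h and 13.15, 13.17, 13.20 and 13.23 at 24 h. It was at 13.18, 13.18, 13.23 and 13.28 at 48 h and 13.18, 13.18, 13.20 and 13.27 at 72 h, above all controls from 24 h on. It changed by 0.099 at 6 h (adjusted p 0.0937) and rose by 0.15, 0.17 and 0.16 (adjusted p 0.0257, 0.00381 and 0.0126). The 24 h call was lost without 24 h sample 1_Cy3, 24 h sample 2_Cy3 or control 2_Cy5 (log2 change 0.12 to 0.14, adjusted p 0.0564 to 0.121) and the 72 h call without control 2_Cy5 (log2 change 0.14, adjusted p 0.0706).

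Its partner subunit Pmpca, which binds the presequence, was at 11.44, 11.52, 11.56 and 11.58 in the controls, 11.39, 11.48, 11.56 and 11.57 at 6 h and 11.38, 11.47, 11.53 and 11.55 at 24 h. It was at 11.39, 11.43, 11.53 and 11.58 at 48 h and 11.45, 11.49, 11.53 and 11.56 at 72 h. All groups overlapped, and the changes of -0.028, -0.046, -0.042 and -0.019 did not pass. Mipep, which trims a further octapeptide from some precursors, rose at 48 h alone, by 0.26 (SE 0.057, adjusted p 0.000955), with 0.12, 0.030 and 0.052 at the other times. Pitrm1, which degrades cleaved presequences, passed at no time (0.13, 0.094, -0.015 and -0.083).

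Genes that take the same place or share a complex often changed unequally. The log2 ratio was tested for 8 pairs at 4 times, with p-values adjusted over these 32 tests. Of these, 25 passed, over 7 of the 8 pairs, and 5 pairs passed at all 4 times. Other pairs of genes were not tested in this way, so whether 25 of 32 is more than unrelated genes would give was not tested. A ratio shows unequal change, not which gene changed, nor which is more abundant. Without control 2_Cy5, 14 of the 32 passed. In limma the spread of each ratio was drawn towards that of single genes, not of ratios, so the pair p-values may be too small.

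The ratio of Timm8a1 to Timm8b rose by 0.92 at 6 h (SE 0.090, adjusted p 8.54e-08) and by 0.36, 0.50 and 0.38 later. That of Timm10 to Timm10b rose by 0.64, 0.45, 0.48 and 0.39. Immp1l to Immp2l changed by -0.26, -1.18, -0.94 and -1.26 (SE 0.11, adjusted p 3.1e-08 at 72 h), the widest separation of any pair. These 3 pairs, Mtx1 with Mtx2 and Pmpca with Pmpcb were past the threshold at every time. Mtx1 to Mtx2 changed by -0.17, -0.29, -0.26 and -0.19, and Pmpca to Pmpcb by -0.13, -0.19, -0.22 and -0.18. The ratios rest on the brightest probe of each gene. The dimmer Timm8a1 probe changed by -0.012 at 72 h, beside -0.076 for Timm8b, and its ratio was not tested.

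The ratio of Timm17a to Timm17b, on the brightest probes, turned over the course, being 0.15 at 6 h (adjusted p 0.0202), 0.018 at 24 h (adjusted p 0.818), -0.15 at 48 h (adjusted p 0.0272) and -0.22 at 72 h (adjusted p 0.00998). The second Timm17a probe changed by -0.026, -0.12, -0.13 and -0.26, beside -0.099, -0.20, -0.097 and -0.16 for Timm17b. Its ratio was not tested, so the turn rests on 1 probe. Tomm40 to Tomm40l passed at 48 h (0.37) and 72 h (0.45) and stood at 0.20 and 0.17 before. The dimmer Tomm40 probe changed by -0.043 and -0.20 at 48 and 72 h, beside -0.39 and -0.53 for Tomm40l. The ratio on that Tomm40 probe was not tested. Dnajc15 to Dnajc19 passed at no time on the brightest probes, with changes of 0.052, -0.012, 0.069 and 0.14 and SEs of 0.055 to 0.066. The dimmer Dnajc19 probe changed by -0.0075, 0.057, 0.090 and 0.23, beside 0.050, 0.34, 0.32 and 0.30 for Dnajc15. The ratio on that probe was not tested.

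**Figure D4:**
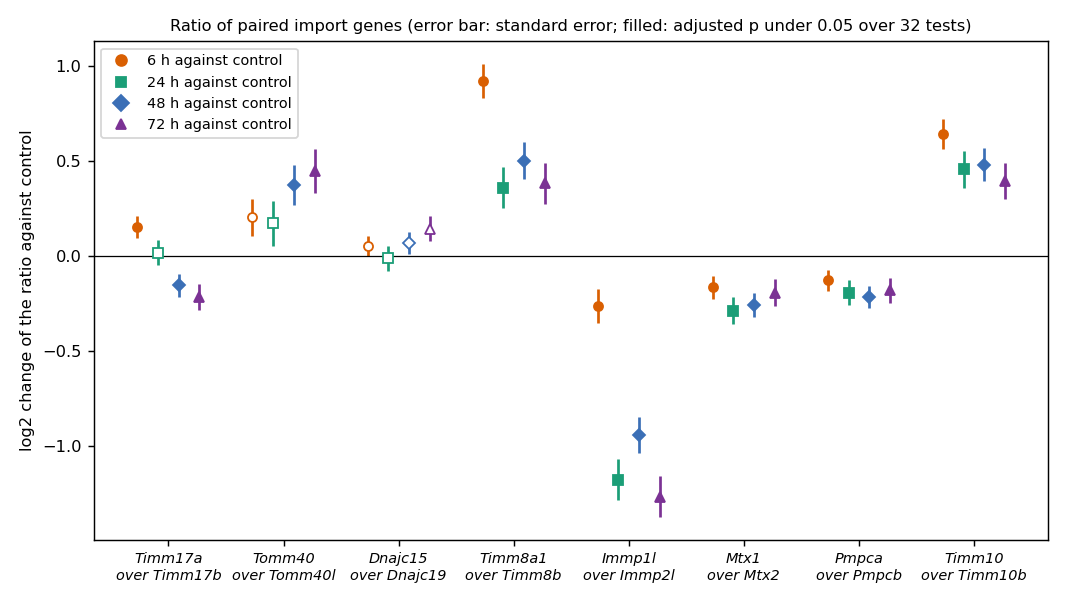
Change of the log2 ratio of 8 gene pairs against the carrier control at 6 h (circles), 24 h (squares), 48 h (diamonds) and 72 h (triangles), with its standard error and filled symbols where the adjusted p over 32 tests was under 0.05. Immp1l over Immp2l lies near -1 from 24 h on, Timm8a1 over Timm8b peaks at 0.92 at 6 h, and Dnajc15 over Dnajc19 has no filled symbol.

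Set against the time before, the most import genes were called between 6 h and 24 h. In that step 15 of 37 passed, 7 higher and 8 lower, against 32.8% of all genes (16.4% higher, 16.4% lower). From 24 h to 48 h 2 passed, Mipep higher and Immp2l lower, against 12.1% (5.77% and 6.36%), and from 48 h to 72 h 9 passed, 2 higher (Mtx3 and Immp2l) and 7 lower, against 23.2% (12.9% and 10.3%). With loess but no scaling between arrays the first step had 5 higher and 2 lower, and without 24 h sample 2_Cy5 the second step had 1 call. Mipep rose by 0.23 from 24 h to 48 h and fell by 0.21 after that (adjusted p 0.0145 and 0.0133), the first step lost without 24 h sample 2_Cy5 (log2 change 0.18, adjusted p 0.0567) and the second without 72 h sample 1_Cy3 (log2 change -0.19, adjusted p 0.0519). These steps were at 0.15 (adjusted p 0.498) and -0.13 (adjusted p 0.475) without the slide term. Mtx3 rose by 0.37 from 6 h to 24 h and by 0.39 from 48 h to 72 h.

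In the last step the small TIM genes fell: Timm9 by 0.34, Timm8a1 by 0.29, Timm10 by 0.20, Timm8b by 0.17 and Timm13 by 0.15. All 5 tested were called lower, beside 10.3% of all genes. The other members lower in that step were Tomm5, at -0.22, and Mipep. When arrays were not scaled to each other after loess, 1 member, higher, was called in this step, and 3, 4 and 5 were called without 72 h sample 1_Cy3, 72 h sample 2_Cy3 and 48 h sample 2_Cy3. The authors' normalized values gave 1 higher and 9 lower. The call was lost for Timm10 without 48 h sample 1_Cy3, 48 h sample 1_Cy5, 48 h sample 2_Cy3, 48 h sample 2_Cy5, 72 h sample 1_Cy3, 72 h sample 1_Cy5 or 72 h sample 2_Cy3 (log2 change -0.21 to -0.19, adjusted p 0.0528 to 0.0937). It was lost for Timm13 without 48 h sample 1_Cy5, 48 h sample 2_Cy3, 48 h sample 2_Cy5, 72 h sample 1_Cy3, 72 h sample 1_Cy5 or 72 h sample 2_Cy3 (log2 change -0.15 to -0.13, adjusted p 0.0577 to 0.105). Without the slide term Timm13 was at -0.050 (adjusted p 0.847). The call was also lost for Timm8b without 48 h sample 2_Cy3, 72 h sample 1_Cy3, 72 h sample 1_Cy5 or 72 h sample 2_Cy3 (log2 change -0.16 to -0.15, adjusted p 0.0591 to 0.0662), and for Tomm5 without 48 h sample 2_Cy3, 48 h sample 2_Cy5, 72 h sample 1_Cy3 or 72 h sample 2_Cy3 (log2 change -0.21 to -0.18, adjusted p 0.0655 to 0.0988).

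From 6 h to 24 h Timm22 fell by 0.31, Timm50 by 0.26, Timm17a by 0.24 and Timm13 by 0.19. Timm8a1 fell by 0.33 and Timm10 by 0.24. Dnajc15 rose by 0.29, Dnajc19 by 0.36, Timm8b by 0.24 and Tomm7 by 0.24. Of these calls, that of Timm8a1 was lost without 6 h sample 1_Cy3 (log2 change -0.26, adjusted p 0.0555). That of Timm10 was lost without 24 h sample 1_Cy3, 24 h sample 2_Cy5 or 6 h sample 1_Cy3 (log2 change -0.21, adjusted p 0.0526 to 0.0799). That of Timm13 was lost without 6 h sample 1_Cy3 (log2 change -0.17, adjusted p 0.0541), that of Timm23 without 6 h sample 1_Cy3 (log2 change -0.18, adjusted p 0.0549) and that of Tomm7 without 6 h sample 2_Cy5 (log2 change 0.22, adjusted p 0.0588). Without the slide term the step was -0.0030 (adjusted p 0.991) for Timm13, -0.14 (adjusted p 0.391) for Timm22, -0.18 (adjusted p 0.0968) for Timm50, 0.16 (adjusted p 0.127) for Timm8b and 0.27 (adjusted p 0.059) for Mtx3, each past no threshold.

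The 6 h change was set against slide, since controls and 6 h samples lay on both. The 10 genes called at 6 h had the same sign within slide 1 and within slide 2. They were called on both slides together, so this was largely set by the choice and is no separate test. With limma, 0 of 37 members passed when the slide-by-6 h interaction was tested, beside 0.0289% of all genes, and 2 members had an unadjusted p under 0.05.

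The chaperones and accessory proteins that work with the translocases were taken as a list of 26 partners, all tested. Of these, 8, 11, 12 and 10 rose at 6, 24, 48 and 72 h, where 13.7%, 21.2%, 21.5% and 25.2% of all genes did, and 2, 7, 7 and 6 fell, beside 11.1%, 19.1%, 20.3% and 22.6%. Their median log2 change was 0.049, 0.058, 0.11 and 0.036, beside 0.00043, 0.0075, -0.00038 and -0.00089 over all genes. Hspa9, the motor chaperone, rose by 0.54, 0.84, 0.87 and 1.05 (SE 0.070, adjusted p 1.17e-09 at 72 h) and ranked first in the list by adjusted p at every time. Its nucleotide exchange factors differed: Grpel2 rose by 0.31 at 6 h (adjusted p 0.000349), 0.25 at 24 h and 0.24 at 48 h, while Grpel1 fell by 0.17, 0.14 and 0.20 at 24, 48 and 72 h.

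Chchd4, the oxidoreductase that folds the small TIM proteins in the intermembrane space, rose by 0.36 at 6 h (adjusted p 0.000821) and 0.35 at 48 h and was at 0.044 and -0.040 at 24 and 72 h. Gfer, which reoxidises it, rose by 0.20, 0.21, 0.30 and 0.14. The outer membrane insertase Mtch2 rose by 0.16, 0.36, 0.44 and 0.31, while its relative Mtch1 fell by 0.29, 0.18, 0.20 and 0.15. Atad1, which extracts misplaced proteins from the outer membrane, rose by 0.32 at 6 h and 0.48 at 72 h.

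Pink1, a kinase that builds up on mitochondria when import fails, was at -0.12 at 6 h (adjusted p 0.234) and rose by 0.73, 0.40 and 0.72 after that. Hspe1, the cofactor of the matrix folding chaperone Hspd1, rose by 0.29, 0.32 and 0.21 from 24 h. Chchd6, of the cristae organising complex, rose by 0.42, 0.40 and 0.45, while Apoo and Micos10 of the same complex fell at 24, 48 and 72 h, by 0.35 and 0.31 at 72 h. The comparisons at the 4 times share the same 4 controls.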

How the data were processed

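Total RNA of 20 samples was measured on 10 Agilent 2-colour arrays, with 2 Cy3 and 2 Cy5 samples in each of the 5 groups. Per the file headers, the deposited files hold linear spot intensities from Feature Extraction 10.7.3.1 on slide 1 and 11.0.1.1 on slide 2, with array annotation on mm9, so an effect of the slide cannot be told apart from one of its scan or of that software. Whether a spot was outlying, saturated or above background was read from marks in the same deposited files. R 2.15 and limma are named in the submitters' processing notes. The deposited series matrix holds log2 values the authors normalized (column medians 6.90 to 6.91, r with the same channel of the scanner files 0.999 to 1.000). Their exact normalization is not given in the sources used here.

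From the median spot signals, intensities were background-corrected (normexp, offset 50), normalized by loess within arrays and Aquantile between arrays, and put on the log2 scale with R 4.3.3 and limma 3.58.1. Control spots and outliers were left out. A probe was kept if at least 4 of 20 samples had it well above background, and the brightest probe stood for a gene. Array designs name genes by symbols that can be old, and accessions were named through the RefSeq tables. limma was fitted on all 24250 genes and transcripts with dye and slide as terms and array as a random block (correlation 0.25), and p-values were adjusted by Benjamini-Hochberg over all of them. Signal limits precision: array medians were 81 to 165, and 1 spot was saturated. The limma fit was tested on simulated gene levels, for 24 h against control alone. Normalization, the filter, the choice of probe and the pair test were not tested in this way.

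Every member is accounted for by role. Values per sample are given for the 10 called members with the largest change and for members of pairs that passed, and for the partners the 5 smallest adjusted p at each time were named, with Grpel1, Apoo and Micos10 (listed as Minos1) named after their values were seen. The members and lists were chosen with earlier results of these data known. The alternatives were other normalizations, background corrections, filters and probe rules, the fit without slide, dye or array terms, within slides, on the compared groups, without 1 array, with a replicate block and without each sample.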

Additional observations from a re-analysis of the deposited data

Results flagged for a closer look

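Among 95 groups of 4 values (19 members in 5 groups), 5 had a sample far from the other 3, its gap to the nearest of them being above Dixon's critical share of the group's range. Chance gives this in about 1 of 20 groups. On the log2 scale, Timm17b was at 13.44 in control 2_Cy5 against 13.41 in the other 3 controls. Timm22 was at 11.89 in 24 h sample 2_Cy5 against 11.97 to 11.98. Timm8b was at 13.70 in 72 h sample 2_Cy5 against 13.56 to 13.58. Tomm40 was at 13.24 in 48 h sample 2_Cy5 against 13.20 in the others. Tomm40l was at 9.49 in 48 h sample 2_Cy3 against 9.39 to 9.40.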

How the results depend on the processing

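Of 93 called values of import genes against control or between neighbouring times, 0 changed sign in any alternative; of their 2149 alternative values 1878 kept the call and 271 missed the threshold, and 84 uncalled values passed. With loess within arrays and no scaling between them, 6 members were called at 24 h, 10 at 72 h, 7 from 6 h to 24 h, 0 from 24 h to 48 h (limma, 1 at an unadjusted p under 0.05) and 1 from 48 h to 72 h. Without the slide term, 8 were called from 6 h to 24 h, 0 from 24 h to 48 h (limma, 5 unadjusted) and 3 from 48 h to 72 h. Within slide 2 alone, 4 were called from 24 h to 48 h. Within slide 1 alone, with 2 samples a group, 0 were called at 6 h (limma, 4 unadjusted; 29 of all 24250). From 48 h to 72 h, 5 were called without the dye term and 5 without the array that stood apart. On only the samples of the groups compared, 4, 10 and 14 were called at 6, 24 and 72 h. The cause of these differences was not tested, except that the last 2 settings use fewer samples. The other normalizations, background corrections, filters and the probe rule kept each count within 1.5 times.

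Leaving out each sample in turn gave 9 to 18 called at 6 h, 13 to 20 at 24 h, 14 to 19 at 48 h, 16 to 22 at 72 h, 11 to 16 from 6 h to 24 h, 1 to 2 from 24 h to 48 h, 3 to 9 from 48 h to 72 h and 14 to 26 of 32 pair tests. Of 67 calls against control, 46 were kept without any 1 sample, and 16 of the 21 lost were lost without control 2_Cy5. With the replicate label as a replicate block, 12, 17, 18 and 22 were called at 6, 24, 48 and 72 h, 15, 2 and 8 in the steps between times, and 25 of 32 pair tests. Same-labelled samples of different groups and arrays did not deviate together (median r -0.039 over 40 pairs, 1 over 0.1). Whether samples of a group with the same number in the 2 dyes share RNA was not tested. The pair count within slide 1 could not be set against 32 tests, since 6 h alone could be tested there. All 37 members were well above background in all 20 samples.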
